A study of Drosophila melanogaster with 13 samples.

Results

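The 10 genes described here encode alpha, beta and gamma subunits of heterotrimeric G proteins in Drosophila melanogaster. They were taken by symbol from the gene column of the authors' transcript table, with no cut on level or change. The choice was made with earlier results of these data known. These genes are 10 of the 13893 genes to which a transcript was assigned. Their 44 transcripts are part of the 30397 assigned transcripts. The alpha subunits are Galphaq, Galphaf, Galphai, Galphao, Galphas and cta (concertina), the beta subunits are Gbeta13F and Gbeta76C, and the gamma subunits are Ggamma1 and Ggamma30A.

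A heterotrimeric G protein is held at the inner face of the membrane until an activated receptor makes its alpha subunit exchange GDP for GTP. The alpha subunit and the beta-gamma dimer then part, and both act on effectors such as phospholipase C, adenylyl cyclase and ion channels. In taste neurons of the fly, Galphas, Galphaq and Ggamma1 have each been linked to the response to sugars. In the compound eye, Galphaq works with Gbeta76C and Ggamma30A to couple rhodopsin to the phospholipase C encoded by norpA.

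RNA was sequenced from dissected proboscises, the mouthpart that ends in the taste organ named labellum in the labels. In the diet experiment, flies with the genotype label "parental" were kept for 7 days on a sugar diet (2 libraries) or on the control diet of cornmeal food (2 libraries), with 200 proboscises per library. In the RNAi experiment, Gr5a-GAL4 / UAS-OGT RNAi flies (5 libraries, called OGT RNAi below) were set against Gr5a-GAL4 / + flies (4 libraries, called Gal4 control below), all of them on the sugar diet for 7 days and with 20 proboscises per library. Gr5a-GAL4 drives expression in sweet taste neurons, so the RNAi transgene is active in few of the cells that were sequenced. No library carried the UAS-OGT RNAi transgene without Gr5a-GAL4. Within the RNAi experiment, RNAi against OGT and the presence of that transgene therefore cannot be told apart. OGT is the enzyme O-GlcNAc transferase, which attaches N-acetylglucosamine to proteins and is encoded by sxc. The replicates are stated to be biological, each library pools many flies, and the 2 experiments used different extraction and library kits and genotypes. Differences in level between the experiments are therefore given side by side, without a test, since kit, input and genotype cannot be told apart.

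The libraries held 5632598 to 8105908 estimated counts in genes in the diet experiment and 8183507 to 13884994 in the RNAi experiment. The target of the RNAi, sxc, had 133 to 170 CPM (counts scaled to the size of the library) in OGT RNAi and 142 to 174 CPM in Gal4 control, a log2 change of -0.19 (SE 0.0859) that did not pass the test (edgeR adjusted p = 0.376). On sugar diet sxc had 47.8 and 52.6 CPM, against 53.8 and 56.4 CPM on control diet. Gal4 control replicate 4 stood apart from all other libraries in eye photoreceptor genes. The summed level of the 4 rhodopsin genes ninaE, Rh3, Rh4 and Rh6 was 609 CPM in that library, 31.4 CPM in Gal4 control replicate 3 and 0.862 to 2.39 CPM in the other libraries of both experiments. Rh3 was at 0 in every library apart from these 2. Results that this library moved are also given without it. Muscle genes, summed over 6 markers, reached 11600 to 16800 CPM in the 13 libraries, and the 10 taste neuron markers 61.0 to 247 CPM, so a subunit's level is a sum over many cell types, and fewer cells of a type cannot be told apart from less RNA per cell.

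Levels between genes were compared in TPM, which divides counts by transcript length before scaling to the library. Ggamma1, the gamma subunit used in most fly tissues, stood first in every library. Its level averaged 386 ± 39.1 TPM on sugar diet and 388 ± 0.858 TPM on control diet (SD, n = 2 each), and 382 ± 53.8 TPM in OGT RNAi (n = 5) and 387 ± 35.1 TPM in Gal4 control (n = 4). The highest level of any other subunit was 64.4 TPM, that of Galphaq in Gal4 control replicate 4. Gbeta13F, the beta subunit found outside the eye, was the next in the diet experiment, with 44.5 and 55.9 TPM on sugar diet and 53.9 and 48.2 TPM on control diet, separate from Galphaq at 23.9 to 32.2 TPM. Below Galphaq, neighbours in the order on sugar diet overlapped from cta (18.5 TPM) through Galphao (17.6 TPM), Galphai (15.0 TPM) and Galphas (14.9 TPM) to Ggamma30A (14.4 TPM). Galphaf was ninth of the 10 in the diet experiment, at 3.37 and 5.12 TPM on sugar diet and 3.55 and 4.23 TPM on control diet, and Gbeta76C was last.

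In the RNAi experiment the same order did not hold. Galphas, Galphaq and Galphaf averaged 50.5, 48.3 and 40.0 TPM in OGT RNAi, with ranges that overlapped from each to the next, while Gbeta13F averaged 39.7 TPM. In Gal4 control the averages were 49.8 TPM for Galphas, 49.8 TPM for Galphaq, 21.4 TPM for Galphaf and 38.8 TPM for Gbeta13F. The sum over the 6 alpha subunits was 175 to 239 TPM in OGT RNAi and 176 to 229 TPM in Gal4 control, and it was 86.3 and 106 TPM on sugar diet and 107 and 117 TPM on control diet. Gamma subunit RNA exceeded beta subunit RNA in all libraries, by 8.24 to 14.4 times in OGT RNAi, 7.19 to 12.1 times in Gal4 control, 7.70 and 8.31 times on sugar diet and 7.45 and 8.42 times on control diet. The alpha subunits together exceeded the beta subunits by 4.37 to 7.37 times in OGT RNAi and 3.60 to 6.14 times in Gal4 control, against 1.89 and 1.94 times on sugar diet and 1.99 and 2.44 times on control diet. The beta sums hold Gbeta13F and Gbeta76C alone. They leave out Gbeta5, which is on the list of regulators below. Gbeta5 averaged 2.27 CPM on sugar diet, 2.39 CPM on control diet, 5.24 CPM in OGT RNAi and 4.83 CPM in Gal4 control.

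**Figure D1:**
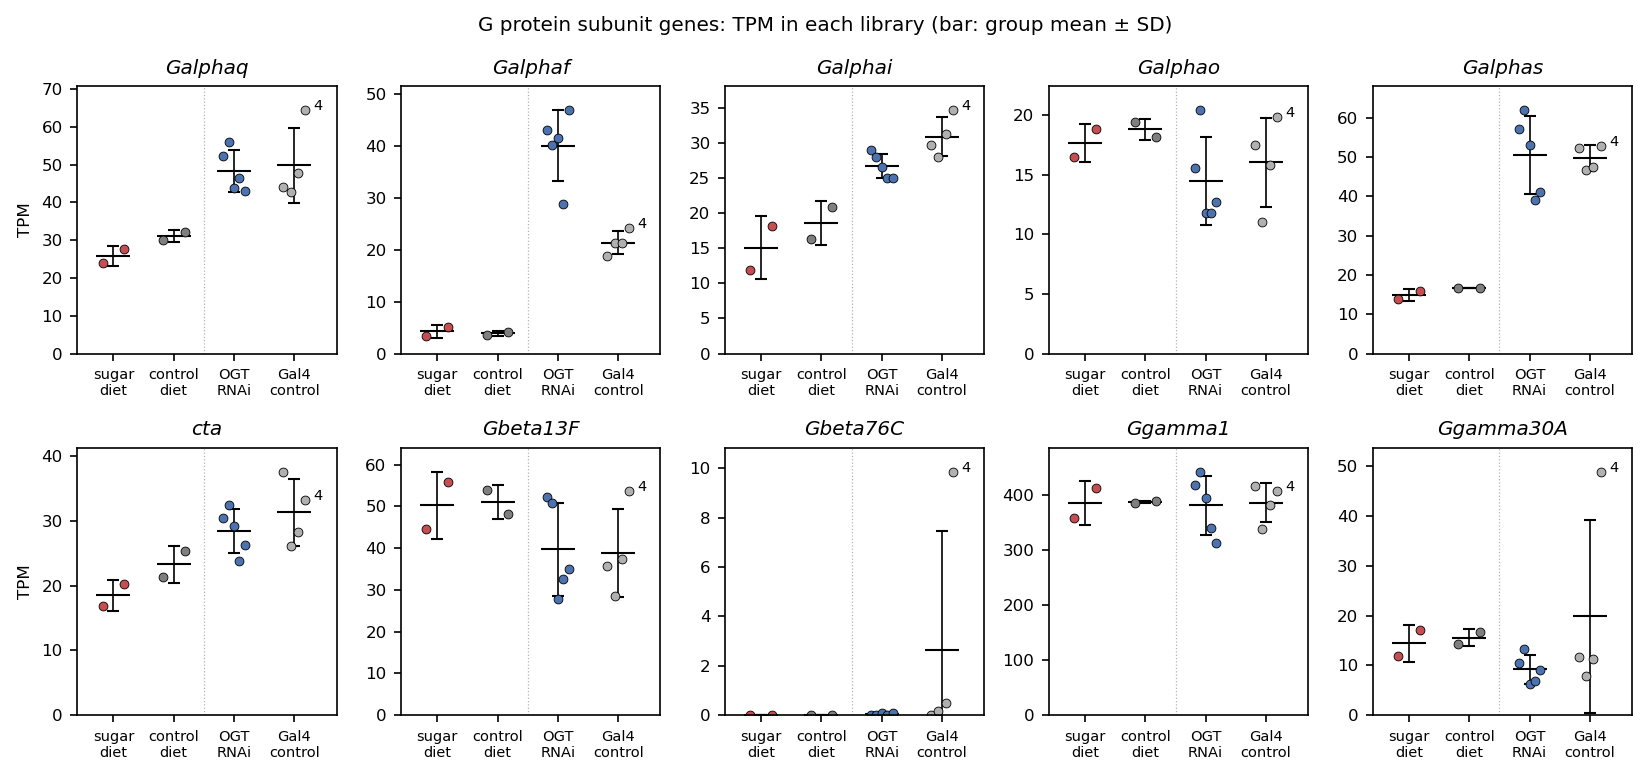
Level of each subunit gene in TPM (linear axis from 0) in every library, with the sugar diet, control diet, OGT RNAi and Gal4 control groups from left to right. Points are libraries, bars are the group mean ± SD, the dotted line parts the 2 experiments, and the digit 4 marks Gal4 control replicate 4, which holds the highest Gbeta76C (9.86 TPM) and Ggamma30A (48.9 TPM).

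Comparisons within each experiment used TMM-normalised CPM and edgeR's quasi-likelihood F test over all genes that passed a filter on low counts, and a gene was called at a Benjamini-Hochberg adjusted p under 0.05. Of the 10 subunit genes, 9 passed the filter in each comparison and Gbeta76C did not. On sugar diet none of the 9 was called by edgeR, where 6.47% of the 8825 genes tested were called, 3.12% as higher and 3.35% as lower. DESeq2 gave Galphaf no adjusted p and called none of the other subunit genes, where 306 of 6608 genes were called. At an unadjusted edgeR p under 0.05 there was 1 of the 9, Ggamma1, against 17.7% of all genes. In OGT RNAi 1 of the 9 was called, Galphaf, which was higher, where 1.27% of the 9399 genes tested were called and 1.04% were called as higher and 0.223% as lower. At an unadjusted p under 0.05 there were 2 of the 9, Galphaf and Galphai, against 12.9% of all genes. The median log2 change of the 9 genes was 0.10 on sugar diet, and 0.00 over all genes tested, and in OGT RNAi both medians were 0.00. The groups did not overlap for 6 of the 9 genes on sugar diet and for 1 of the 9 in OGT RNAi, where the share over all genes was 47.5% and 5.54%.

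**Figure D2:**
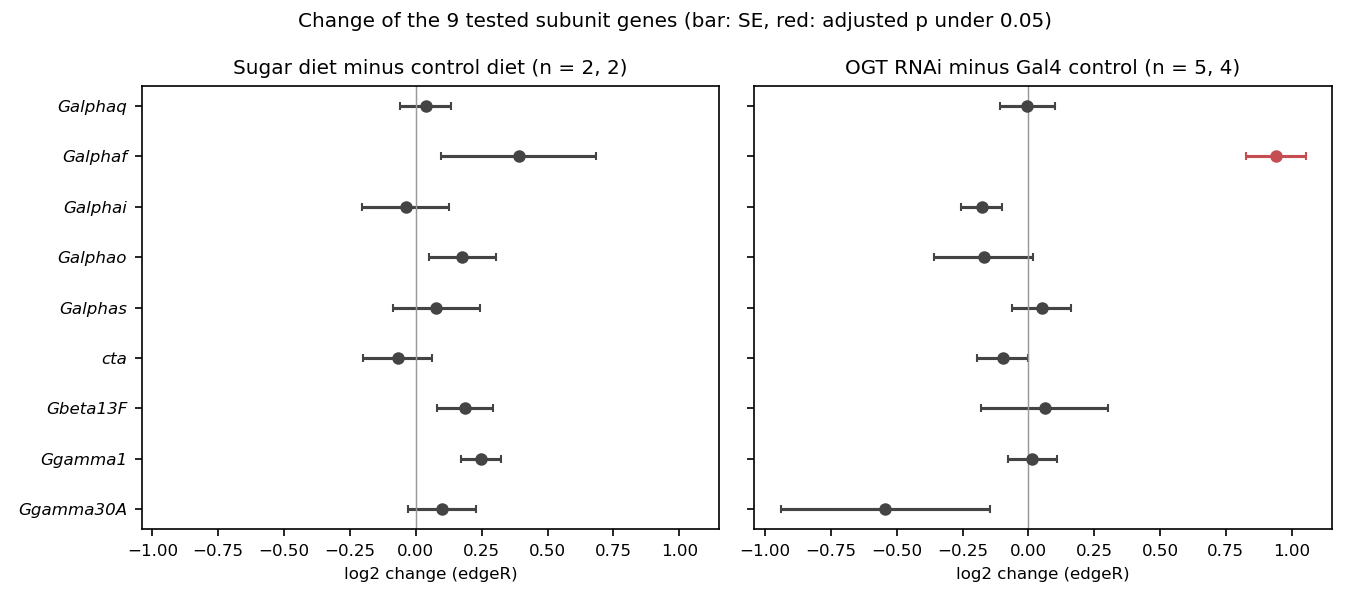
Log2 change of the 9 tested subunit genes from edgeR, sugar diet minus control diet on the left (n = 2 each) and OGT RNAi minus Gal4 control on the right (n = 5 and 4). Points are estimates, bars are the SE and red marks an adjusted p under 0.05, which only Galphaf in OGT RNAi reached, at 0.94.

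Galphaf is an alpha subunit of insects that has been studied less than the other members. Its gene (FBgn0010223) lies at 3L:16662557-16667934 on the minus strand of the BDGP6 assembly, has a single transcript of 1825 bases (FBtr0075354) and encodes 399 residues. The OGT RNAi libraries 1 to 5 had 58.9, 55.6, 60.0, 43.0 and 65.6 CPM of Galphaf, against 25.5, 29.1, 30.4 and 33.5 CPM in Gal4 control libraries 1 to 4. Every OGT RNAi library lay above every Gal4 control library, and the lowest, OGT RNAi replicate 4, was the least deeply sequenced of that experiment. The means were 56.6 ± 8.42 CPM in OGT RNAi and 29.6 ± 3.32 CPM in Gal4 control, a 1.92-fold difference (log2 change 0.94, SE 0.113, edgeR adjusted p = 0.00123, higher in 5 of 5 libraries). By p-value Galphaf was number 3 of the 9399 genes tested. It was called under each of the 17 alternative settings, at log2 changes of 0.87 to 1.01, and without Gal4 control replicate 4 the change was 1.01 (SE 0.122, edgeR adjusted p = 0.0033). All of these settings compared the same genotypes, so they do not part RNAi against OGT from the presence of the UAS-OGT RNAi transgene.

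The authors' deposited table gives Galphaf a coefficient of 0.647 and a q-value of 2.48e-08 in the same contrast. If that coefficient is a natural log, a scale the sources used here do not state, it equals 0.933 on the log2 scale. When the transcripts were tested in place of the genes, the only Galphaf transcript had a log2 change of 0.95 (SE 0.133) and an edgeR adjusted p of 0.121, in a test that called 0.00521% of 19193 transcripts. Without OGT RNAi replicate 4, 1 transcript of the 10 genes was called in the transcript test. The share of all transcripts called in that fit is not given here. At the gene level that setting called 264 genes, against 119 with all libraries.

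None of the 28 tested genes within 100 kb of Galphaf was called in OGT RNAi, and their log2 changes ran from -0.17 to 0.56. Galphaf overlaps an annotated gene on the opposite strand (FBgn0267697), and whether the counting used strand is not given in the sources used here. Of the marker lists, the 5 support cell markers also differed without overlap in their sum, at 2230 to 2510 CPM in OGT RNAi and 1750 to 2190 CPM in Gal4 control. By edgeR 0 of 5 were called, against 1.27% of all genes. At an unadjusted p under 0.05 there were 3 of 5, nompA and Obp49a as higher and Obp57e as lower, against 12.9% of all genes. Most of the support cell sum was Obp49a, at 1650 ± 110 CPM in OGT RNAi and 1390 ± 185 CPM in Gal4 control (SD, n = 5 and 4), while Obp57d and Obp57e had log2 changes of -0.21 and -0.75. Fat body markers summed to 2160 to 3050 CPM in OGT RNAi and 2820 to 3460 CPM in Gal4 control, and the 10 taste neuron markers to 190 to 239 CPM and 212 to 247 CPM. The part of these cell types in the Galphaf difference was not tested.

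As a share of all alpha subunit RNA in TPM, Galphaf made up 16.4% to 24.0% in OGT RNAi and 9.41% to 12.1% in Gal4 control. It made up 3.91% and 4.83% on sugar diet and 3.31% and 3.61% on control diet. In the diet experiment Galphaf had 4.94 and 6.07 CPM on sugar diet, against 4.00 and 4.43 CPM on control diet. Both sugar diet values were above both control diet values, but the log2 change of 0.39 (SE 0.294) did not pass the test (edgeR adjusted p = 0.553).

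**Figure D3:**
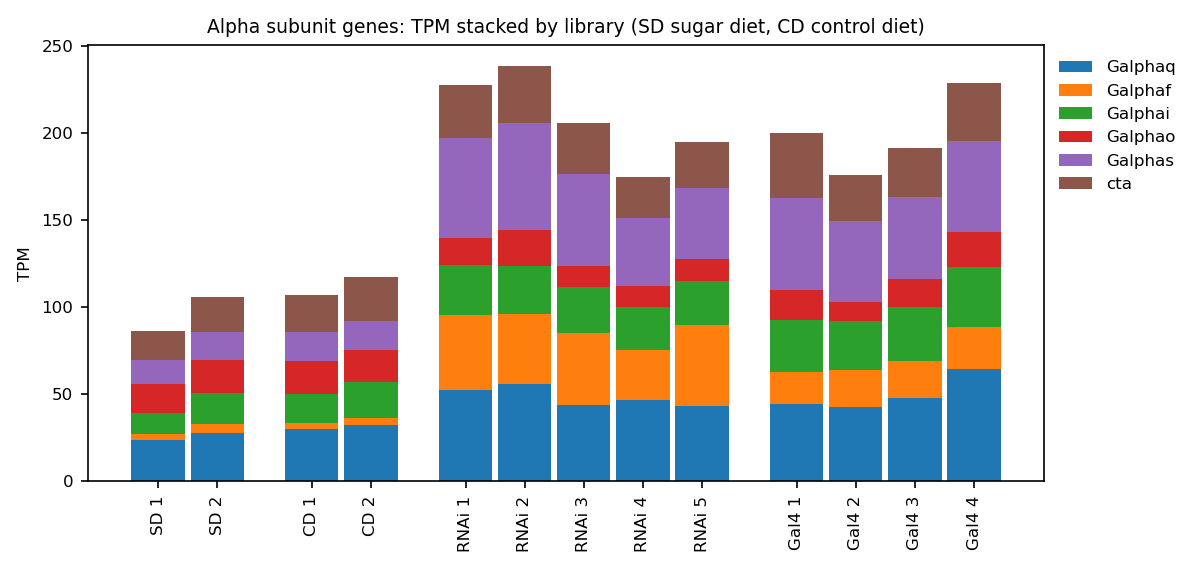
TPM of the 6 alpha subunit genes, stacked, in each library (axis from 0), with the sugar diet, control diet, OGT RNAi and Gal4 control groups from left to right. The Galphaf segment is 28.7 to 46.8 TPM in OGT RNAi, 18.8 to 24.2 TPM in Gal4 control and at most 5.12 TPM in the diet experiment.

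Galphaq (FBgn0004435, 2R:12612740-12623197, plus strand) carries the signal from receptors to phospholipase C. It had 79.5 and 73.8 CPM on sugar diet, against 73.6 and 75.6 CPM on control diet, with overlapping groups and a log2 change of 0.04 (SE 0.0958, edgeR adjusted p = 0.902). In the RNAi experiment it averaged 145 ± 15.2 CPM in OGT RNAi and 145 ± 24.1 CPM in Gal4 control, where replicate 4 was the highest library at 179 CPM (edgeR adjusted p = 0.99). Without that replicate the log2 change was 0.11 (SE 0.0931, edgeR adjusted p = 0.805).

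Galphas (FBgn0001123, 2R:23942538-23946936, plus strand) stimulates adenylyl cyclase. It had 18.8 and 17.3 CPM on sugar diet, against 17.3 and 16.8 CPM on control diet, a log2 change of 0.08 (SE 0.166, edgeR adjusted p = 0.873). In OGT RNAi it ranged from 52.0 to 77.8 CPM with a median library at 69.6 CPM, and in Gal4 control from 57.7 to 65.8 CPM (log2 change 0.05, SE 0.112, edgeR adjusted p = 0.899). The OGT RNAi libraries lay on both sides of the Gal4 control libraries.

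Galphai (FBgn0001104, 3L:6972750-6980044, minus strand) is best known in flies for its role with pins in oriented cell division. It had 20.0 and 24.8 CPM on sugar diet, against 21.1 and 25.0 CPM on control diet, so replicates of a diet differed by more than the diets did. In OGT RNAi the libraries had 45.4, 44.4, 44.2, 43.1 and 40.2 CPM, against 46.2, 44.0, 51.4 and 54.9 CPM in Gal4 control. The groups overlapped through Gal4 control replicate 2, and the log2 change of -0.18 (SE 0.0778) had an edgeR adjusted p of 0.352. Without Gal4 control replicate 4 it was -0.12 (edgeR adjusted p = 0.713).

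Galphao (FBgn0001122, 2R:10437985-10465701, plus strand) is a neuronal alpha subunit that also serves heart and glial development. It had 46.4 and 43.5 CPM on sugar diet, against 42.9 and 36.7 CPM on control diet, a log2 change of 0.18 (SE 0.127, edgeR adjusted p = 0.533). In the RNAi experiment it had 34.2 to 56.7 CPM in OGT RNAi and 33.1 to 57.2 CPM in Gal4 control (log2 change -0.17, SE 0.188, edgeR adjusted p = 0.777). Without Gal4 control replicate 4 the log2 change was -0.06 (SE 0.192, edgeR adjusted p = 0.965). Galphao overlaps Cyp49a1 on the opposite strand. Galphai and Ggamma30A also overlap a gene on the opposite strand (FBgn0047205 and FBgn0266800), and Galphaq overlaps CG45086 on the same strand.

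The alpha subunit cta (FBgn0000384, 2L:22981816-22992951, plus strand) acts through RhoGEF2 in the cell shape changes of the embryo. It had 33.4 and 32.8 CPM on sugar diet, against 34.4 and 35.0 CPM on control diet. The 2 groups did not overlap, but the log2 change was -0.07 (SE 0.131, edgeR adjusted p = 0.851). In OGT RNAi it averaged 58.4 ± 6.01 CPM, against 62.6 ± 8.04 CPM in Gal4 control (SD, n = 5 and 4, edgeR adjusted p = 0.737).

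Gbeta13F (FBgn0001105, X:15860115-15866175, plus strand) had 130 and 124 CPM on sugar diet, against 125 and 97.7 CPM on control diet. Control diet replicate 2 was the low library. In it FBtr0074106, a target without an assigned gene, had 197 estimated counts and Gbeta13F transcript FBtr0331597 almost none. In control diet replicate 1 these targets had 0.0344 and 157. The values above leave FBtr0074106 out, and the change with it added is given further below. The log2 change was 0.19 (SE 0.106, edgeR adjusted p = 0.393). Without control diet replicate 2 it was 0.02 and without control diet replicate 1 it was 0.37, in fits where the lone control diet library is assumed to vary like those on sugar diet. In the RNAi experiment Gbeta13F had 193, 204, 112, 137 and 138 CPM in OGT RNAi and 136, 105, 155 and 205 CPM in Gal4 control (log2 change 0.06, SE 0.241, edgeR adjusted p = 0.953), and without Gal4 control replicate 4 the log2 change was 0.25 (SE 0.222, edgeR adjusted p = 0.837). The high libraries were OGT RNAi replicates 1 and 2 and Gal4 control replicate 4, which also had the 3 highest sums of the 10 neuron markers in that experiment, at 727, 840 and 814 CPM, while the other libraries had 473 to 503 CPM in OGT RNAi and 552 to 634 CPM in Gal4 control. The part of neuron content in these levels was not tested.

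Gbeta76C (FBgn0004623, 3L:19687637-19689992, plus strand), the beta subunit of the eye, was listed at 0 in all 4 libraries of the diet experiment, where a count of 0 allows up to 0.370 to 0.533 CPM. OGT RNAi libraries 1 to 5 had 0, 0, 1, 0 and 1 estimated counts, against 0, 2, 6 and 122 in Gal4 control libraries 1 to 4. Nearly all of the signal was thus in Gal4 control replicate 4, at 10.6 CPM. The 2 libraries with the most Gbeta76C were also those with ninaE, the main rhodopsin gene, at 302 estimated counts in Gal4 control replicate 3 and 6603 in replicate 4. In the other libraries ninaE had 6 to 22 estimated counts.

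Ggamma1 (FBgn0004921, 2R:8901404-8904791, plus strand) had 312 and 295 CPM on sugar diet, against 257 and 254 CPM on control diet. Both sugar diet libraries lay above both control diet libraries, by more than replicates differed. The log2 change was 0.25 (SE 0.0764, 1.19-fold), with an edgeR adjusted p of 0.0686 that missed the threshold, while the authors' deposited table gives it a q-value of 0.0443. The edgeR call was made with an offset for transcript length (log2 change 0.27, adjusted p = 0.0495) and without sugar diet replicate 2 (0.29, adjusted p = 0.00338), a fit in which the lone sugar diet library is assumed to vary like the control diet libraries. Other settings moved it away from the threshold, to an adjusted p of 0.468 without control diet replicate 1, 0.479 without control diet replicate 2, 0.313 in an edgeR fit over all 4 groups and 0.24 with DESeq2.

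On the log2(TPM + 0.5) scale the Ggamma1 change was -0.01, where the median of all genes shifted by -0.267, so that relative to that median it was 0.26. Muscle markers were higher in the same sugar diet libraries, with a sum of 14600 to 16800 CPM against 11600 to 11900 CPM on control diet. Of these, 4 of 6 were called as higher by edgeR, where 3.12% of all genes were called as higher and 3.35% as lower. Glial markers had 2 of 6 called as higher, and 3 of 3 tested fat body markers were called as lower (summed 1520 and 1560 CPM on sugar diet, 2450 and 2540 CPM on control diet). The neuron markers summed to 972 and 953 CPM on sugar diet and 924 and 950 CPM on control diet, with 0 of 10 called. The taste neuron markers summed to 70.8 and 61.0 CPM on sugar diet and 92.1 and 81.8 CPM on control diet, with 0 of 8 tested called. The support cell markers summed to 1040 and 1270 CPM on sugar diet and 1430 and 1450 CPM on control diet, with 1 of 5 called by edgeR, Obp49a as lower. The part of these cell types in the Ggamma1 values was not tested. In the RNAi experiment Ggamma1 had 325 to 456 CPM in OGT RNAi and 350 to 423 CPM in Gal4 control, with a log2 change of 0.02 (SE 0.0937, edgeR adjusted p = 0.969).

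Ggamma30A (FBgn0267252, 2L:9256563-9302494, plus strand) is the gamma subunit of the eye and is also found in other tissues. It had 35.8 and 35.2 CPM on sugar diet, against 32.4 and 33.8 CPM on control diet, a log2 change of 0.10 (SE 0.13, edgeR adjusted p = 0.765). In OGT RNAi it had 32.1, 37.9, 19.8, 25.6 and 20.0 CPM, against 29.6, 22.7, 31.2 and 74.6 CPM in Gal4 control. Gal4 control replicate 4 was far above the others. With it the log2 change was -0.54 (SE 0.397, edgeR adjusted p = 0.644), and without it the means were 27.1 ± 7.85 CPM in OGT RNAi and 27.8 ± 4.54 CPM in Gal4 control (SD, n = 5 and 3), a log2 change of -0.04 (SE 0.234, edgeR adjusted p = 0.979).

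**Figure D4:**
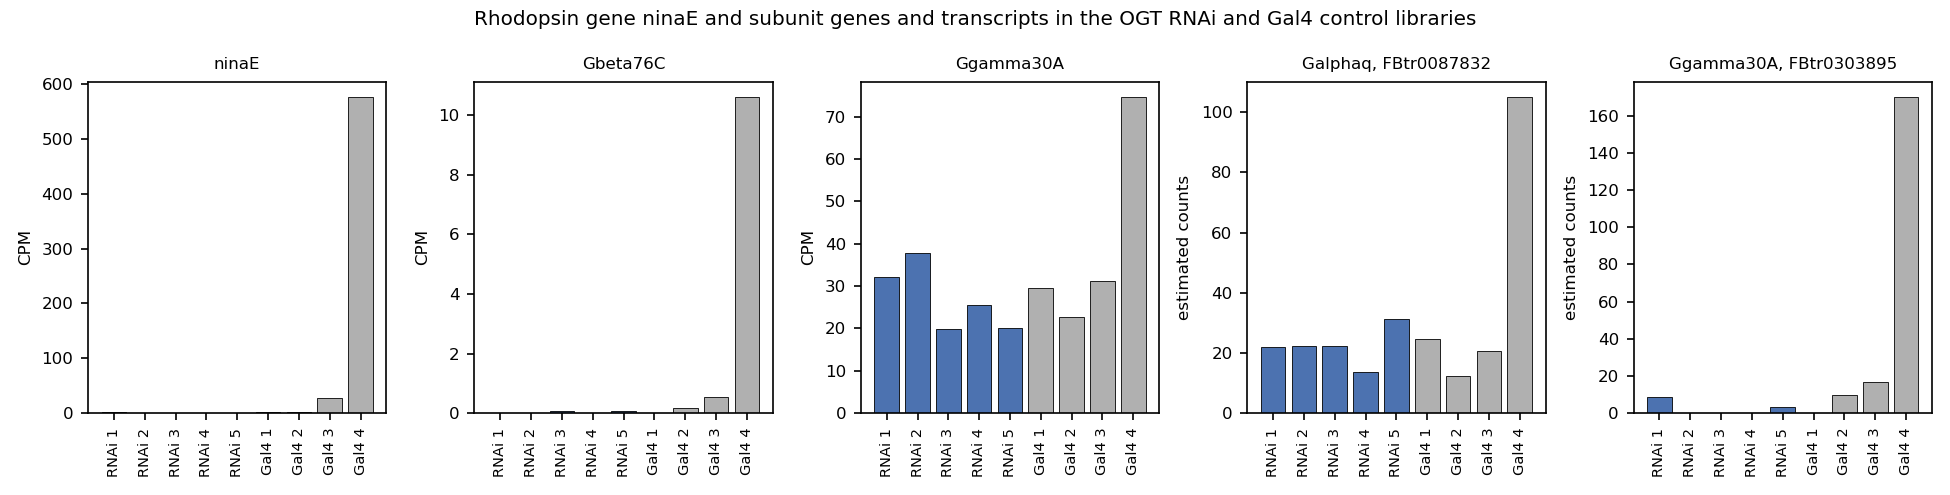
Levels in the 5 OGT RNAi libraries (left, blue) and the 4 Gal4 control libraries (right, grey) of the rhodopsin gene ninaE, Gbeta76C and Ggamma30A in CPM and of a Galphaq and a Ggamma30A transcript in estimated counts (bars from 0). Gal4 control replicate 4 is the highest library in every panel, with 576 CPM of ninaE against at most 27.7 CPM elsewhere.

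Gal4 control replicate 4 also differed from the other libraries of its experiment in which transcripts of Galphaq and Ggamma30A it held. Galphaq transcript FBtr0087832, named here after its values were seen, shares 5 of its 8 coding exons with the form that makes up most of the gene. It had 5.10% of the Galphaq counts in Gal4 control replicate 4, against 1.06% to 1.80% in OGT RNAi and 0.828% to 1.42% in the other Gal4 control libraries, but in the diet experiment, with ninaE at 1.12 to 2.17 CPM, it had 3.58% and 1.12% on sugar diet and 4.43% and 3.02% on control diet. Ggamma30A transcript FBtr0303895 had 19.8% of the gene's counts in Gal4 control replicate 4, against 0% to 2.01% in OGT RNAi and 0% to 4.96% in the other Gal4 control libraries, and 0% in the diet experiment. Ggamma30A transcript FBtr0336620, which encodes 64 residues in place of 72, had 15.8% in Gal4 control replicate 4, 0% to 11.2% in OGT RNAi and 0.401% to 5.32% in the other Gal4 control libraries.

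Of the 44 transcripts, 33 averaged at least 5% of their gene's counts in a group and 2 were at 0 in every library. In the sugar diet comparison 29 of the 44 passed the filter and none was called by edgeR, where 0% of 17390 transcripts were called, and 2 had an unadjusted p under 0.05, against 8.38% of all transcripts. In OGT RNAi 33 passed, and again none was called by edgeR, and 2 had an unadjusted p under 0.05, against 7.23% of all transcripts. A test of each transcript relative to its gene called none of 27 on sugar diet, where 0.356% of 12624 were called, and none of 31 in OGT RNAi, where 0.104% of 14429 were called. At an unadjusted p under 0.05 there were 1 of the 27 on sugar diet, against 4.14% of all, and 0 of the 31 in OGT RNAi, against 1.79% of all. The authors' deposited tables list 35 of the transcripts in each comparison, with q under 0.05 for 0 on sugar diet and for 1, that of Galphaf, in OGT RNAi. The share of all transcripts with q under 0.05 there was not computed, so these counts are not set against a background.

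The 2 smallest p-values on sugar diet belonged to transcripts with few counts. Galphaq transcript FBtr0087831 was listed at 0 in both sugar diet libraries and averaged 2.38 CPM on control diet (edgeR adjusted p = 0.464). Galphas transcript FBtr0343279 averaged 1.67 ± 0.559 CPM on sugar diet and 6.01 ± 1.04 CPM on control diet (SD, n = 2 each), a log2 change of -1.81 (SE 0.516, edgeR adjusted p = 0.497). It made up 11.1% and 7.37% of Galphas counts on sugar diet, against 30.2% and 39.7% on control diet, and 1.82% to 5.79% in the 9 libraries of the RNAi experiment.

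The estimated mix of transcripts differed between the experiments, where the parts of kit, input and genotype cannot be told apart. Galphaq transcript FBtr0087831 averaged 39.5% in OGT RNAi and 34.0% in Gal4 control, against 0% on sugar diet and 3.16% on control diet. For Gbeta13F, transcript FBtr0074107 averaged 4.01% in OGT RNAi and 4.22% in Gal4 control, against 41.5% on sugar diet and 37.4% on control diet. For Ggamma1, FBtr0088647 averaged 15.3% in OGT RNAi and 18.3% in Gal4 control, against 46.5% on sugar diet and 46.2% on control diet. The 3 transcripts of Ggamma1 share a coding sequence of 70 residues, and those of Gbeta13F share one of 340 residues, so these shares differ in untranslated parts alone.

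Shares of coding forms, summed over transcripts that encode the same residues, overlapped between all groups for Galphas. The gene has a form of 382 residues, with 65.0% and 71.2% of the gene's counts on sugar diet and 66.3% and 74.7% on control diet, and it held 62.2% to 74.0% in OGT RNAi and 54.5% to 74.9% in Gal4 control. The form of Galphao carried by FBtr0088266 and FBtr0088272, which differs in 1 of 7 coding exons from the other long form, held 67.2% and 66.9% on sugar diet and 64.2% in each control diet library, and 68.5% to 78.7% in OGT RNAi and 73.5% to 83.7% in Gal4 control. Ggamma30A transcript FBtr0346282 encodes a form of 238 residues and held 37.6% and 44.4% of the gene's counts on sugar diet, against 36.2% and 40.1% on control diet. It held 19.4% to 36.1% in OGT RNAi and 14.2% to 33.1% in Gal4 control.

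**Figure D5:**
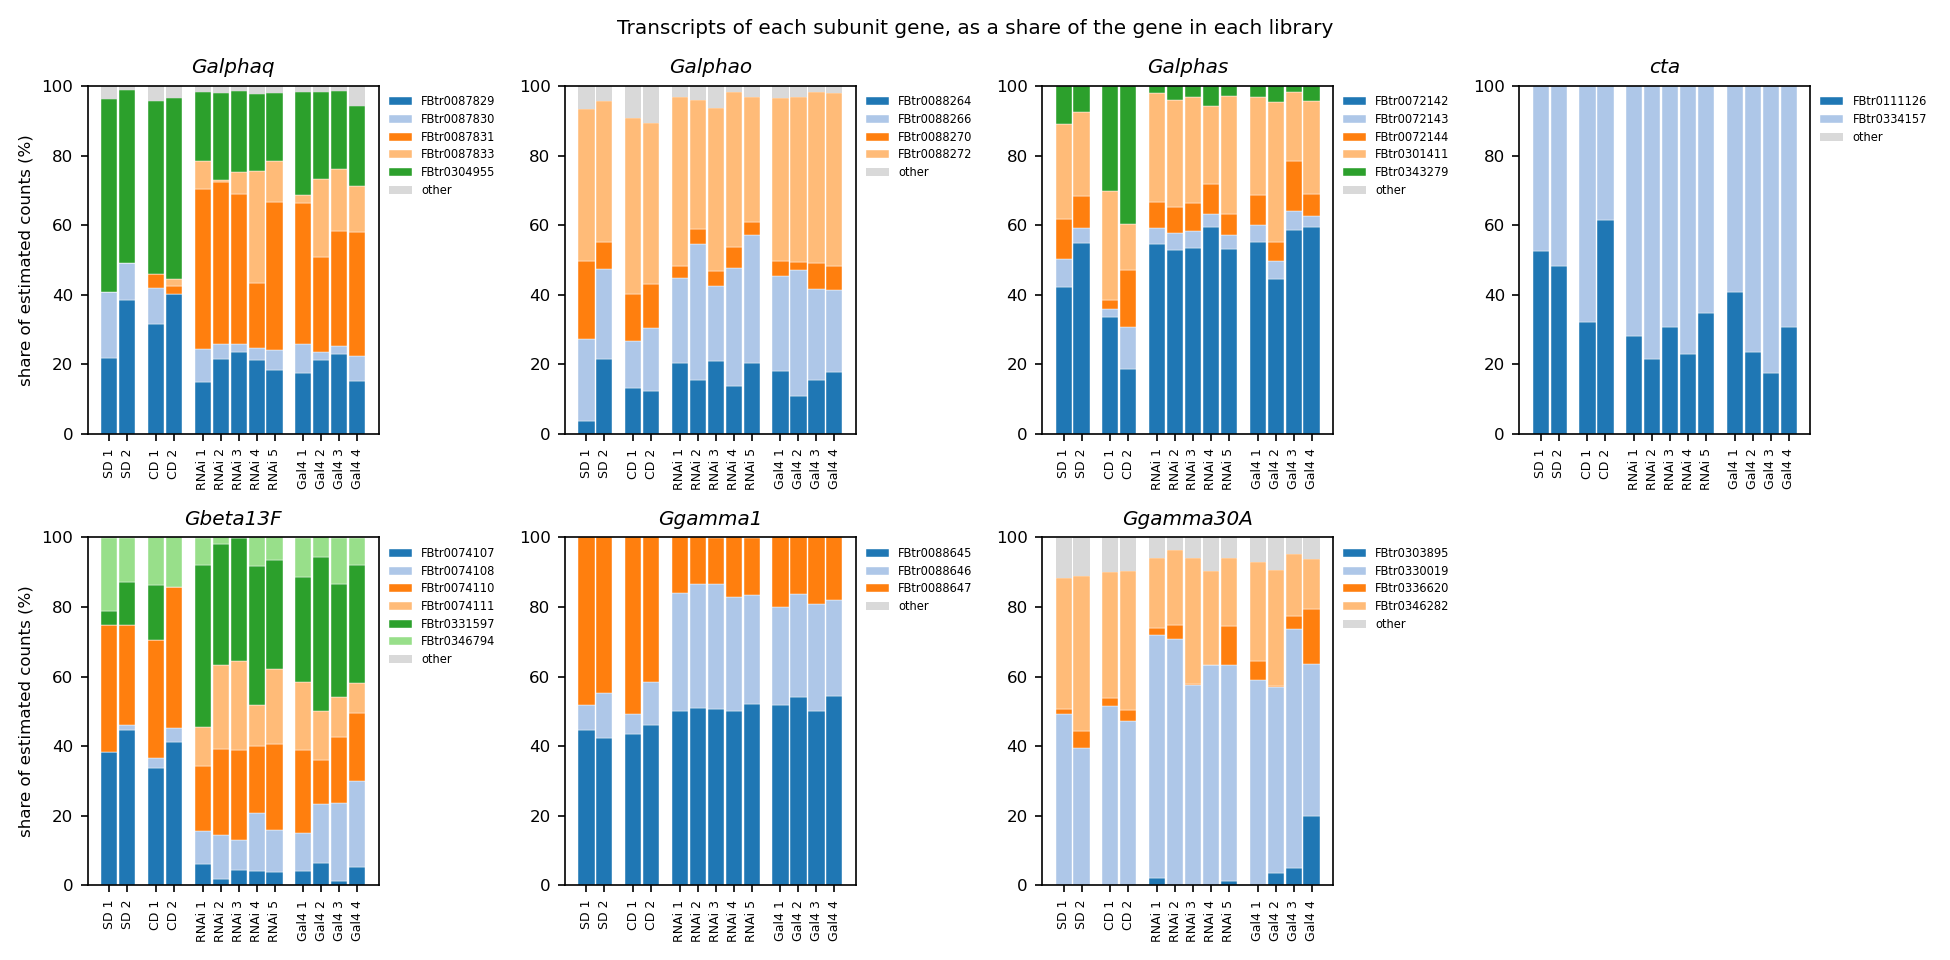
Share of each subunit gene's estimated counts (%, 0 to 100) that falls on each of its transcripts, in every library, for the 7 genes with more than 1 transcript. Columns are libraries (SD sugar diet, CD control diet, RNAi OGT RNAi, Gal4 Gal4 control) and transcripts under 10% in all libraries are pooled as other. The diet and RNAi experiments differ in Galphaq, Gbeta13F and Ggamma1, where FBtr0088647 is 41.5% to 50.9% of the gene in the diet experiment and 13.3% to 20.0% in the RNAi experiment.

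A target without an assigned gene, FBtr0074106, exchanged counts with Gbeta13F transcript FBtr0331597. In control diet replicate 1 FBtr0331597 had 157 estimated counts and FBtr0074106 had 0.0344, and in control diet replicate 2 FBtr0074106 had 197 and FBtr0331597 almost none. With FBtr0074106 added to Gbeta13F, an alternative chosen after seeing the data, the log2 change of the gene was 0.23 (SE 0.0832, edgeR adjusted p = 0.134) on sugar diet and 0.02 (SE 0.252, edgeR adjusted p = 0.981) in OGT RNAi.

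Genes that act with the subunits were taken from 3 lists. The effectors are 15 genes for phospholipase C, adenylyl cyclase and what they act on, of which 12 were tested on sugar diet and 13 in OGT RNAi. None was called by edgeR in either comparison, where 6.47% of all genes were called on sugar diet and 1.27% in OGT RNAi. At an unadjusted p under 0.05 there were 0 of the 12 on sugar diet, against 17.7% of all genes, and 3 of the 13 in OGT RNAi, against 12.9%. The median log2 changes were -0.06 on sugar diet and -0.07 in OGT RNAi. The effectors with the smallest p on sugar diet were the adenylyl cyclase gene Ac13E (log2 change -0.17, SE 0.0834, edgeR adjusted p = 0.318) and RhoGEF2, the exchange factor downstream of cta (-0.12, edgeR adjusted p = 0.461). In OGT RNAi they were trpl, a channel subunit of eye photoreceptors, and Ac78C. The level of trpl was 0.511 ± 0.4 CPM in OGT RNAi, against 53.8 CPM in Gal4 control replicate 4 and 2.11 ± 2.09 CPM in the other 3 Gal4 control libraries (edgeR adjusted p = 0.288 with replicate 4 and 0.438 without it, an alternative chosen after seeing the data). The other effector was the adenylyl cyclase gene Ac78C, at 17.7 ± 2.39 CPM in OGT RNAi and 14.7 ± 1.30 CPM in Gal4 control (log2 change 0.27, SE 0.108, edgeR adjusted p = 0.302, and 0.30 with an adjusted p of 0.429 without Gal4 control replicate 4). Without that replicate 2 of the 13 effectors had an unadjusted p under 0.05, against 9.78% of all genes.

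The regulators are 12 genes for RGS proteins, receptor kinases, arrestins and related factors, and 10 were tested in each comparison. None was called by edgeR, against 6.47% of all genes on sugar diet and 1.27% in OGT RNAi. At an unadjusted p under 0.05 there were 2 of the 10 on sugar diet, against 17.7% of all genes, and 1 of the 10 in OGT RNAi, against 12.9%. RSG7, which encodes an RGS protein that speeds GTP hydrolysis by alpha subunits, averaged 15.8 ± 0.642 CPM on sugar diet and 10.5 ± 1.42 CPM on control diet (log2 change 0.58, SE 0.191, edgeR adjusted p = 0.0925). The RGS gene Dhit averaged 34.4 ± 2.34 CPM on sugar diet and 27.3 ± 0.0721 CPM on control diet (0.34, SE 0.136, edgeR adjusted p = 0.177). In OGT RNAi the RGS gene loco, a partner of Galphai, averaged 57.1 ± 3.24 CPM, against 65.7 ± 2.27 CPM in Gal4 control (-0.20, SE 0.0669, edgeR adjusted p = 0.183), and the receptor kinase gene Gprk2 had a log2 change of -0.13 (edgeR adjusted p = 0.474).

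The third list holds fog, smog, mthl1 and RhoGEF2, which act with cta. None of the 4 was called by edgeR, against 6.47% of all genes on sugar diet and 1.27% in OGT RNAi. None reached an unadjusted p under 0.05, against 17.7% of all genes on sugar diet and 12.9% in OGT RNAi. With 4 genes, counts of 0 are near those shares. On sugar diet smog, a receptor for the ligand fog, had a log2 change of -0.32 (SE 0.226, edgeR adjusted p = 0.515). In OGT RNAi fog had a log2 change of -0.07 (edgeR adjusted p = 0.81) and RhoGEF2 one of -0.09 (edgeR adjusted p = 0.677).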

How the data were processed

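Estimated counts and TPM per transcript were made by the authors with kallisto 0.43 after Trimmomatic 0.22, and their tables of coefficients, p-values and q-values with sleuth, per the submitters' processing notes. The genome build and annotation release are not given in the sources used here. The deposited tables are thus expected counts, TPM, natural log coefficients (scale assumed) and p-values. Estimated counts (73.7% of non-zero values not whole) were summed per gene and rounded. Of 30449 targets, 52 had no gene and held 0.042% to 0.0569% of counts. These stayed out. Positions came from the BDGP6 annotation, which matched those of the authors' deposited tables for 9 of the 10 genes (Gbeta76C has no position there) and for 9888 of 9937 genes.

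Each pair of groups was fitted alone with edgeR 4.0.16 (TMM, filterByExpr with a minimum count of 10 and total of 15, robust quasi-likelihood F test, two-sided, Benjamini-Hochberg over all features tested). SE is the log2 change over the square root of F. Transcript usage was tested with diffSpliceDGE. Alternatives were DESeq2 1.42.0, RLE factors, no filter, a transcript length offset, limma 3.58.1 on log2(TPM + 0.5) and log2(TPM + 0.1), a fit over 4 groups, the replicate number as a block and leaving out each library. The code was tested on simulated data. No 2 replicates agreed within sampling noise (chi-square per degree of freedom 7.24 to 36.4). Floors for a count of 0 are 3 counts and cover counting error only.

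The 10 genes and all lists were chosen with earlier results of these data known. The text names all 10 genes, transcripts with at least 5% of their gene in a group (summarised where not named), sxc, the 2 genes of each pathway list with the smallest p, and the 3 genes most like the most variable member.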

Additional observations from a re-analysis of the deposited data

Results flagged for a closer look

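Values were examined in 76 sets of 4 or 5 libraries from OGT RNAi or Gal4 control. The sets were the subunit genes, their transcripts with at least 5% of the gene, and Galphaq transcript FBtr0087832, which is below that share and was added after its values were seen. Of the 76 sets, 6 held a library whose gap to its nearest neighbour was a larger part of the set's range than Dixon's 95% critical value allows. Chance gives about 1 such set in 20 independent ones, but these are not independent. A gene's set holds those of its transcripts, the Ggamma30A transcripts FBtr0303895 and FBtr0336620 reach a mean share of 5% only through replicate 4, and FBtr0087832 was chosen for its values, so the number 6 is not read against chance. All 6 were in Gal4 control, and in all 6 the library was replicate 4, the one with 609 CPM of rhodopsin genes. Gbeta76C had 10.6 CPM there and 0 to 0.55 CPM in the other 3 Gal4 control libraries. Ggamma30A had 74.6 CPM there and 22.7 to 31.2 CPM in the others. Galphaq transcript FBtr0087832 had 8.92 CPM there and 1.07 to 1.87 in the others. For Ggamma30A transcripts, FBtr0303895 had 14.4 CPM there and 0 to 1.53 in the others, FBtr0336620 had 11.5 there and 0.0935 to 1.55 in the others, and FBtr0079797 had 3.93 there and 1.42 to 1.60 in the others. The part of eye tissue in these values was not tested.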

How the results depend on the processing

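Of 263 values of single subunit genes under another setting, 231 kept their direction and side of the threshold, 30 changed sign and 2, both of Ggamma1 on sugar diet, passed the threshold. Galphaf was called in OGT RNAi under all 17 settings, with adjusted p-values up to 0.0263. On sugar diet the number of subunit genes called was 1 with the length offset and 0 to 1 when a library was left out. All genes called there numbered 571, against 318 in a fit over 4 groups, 306 with DESeq2 and 195 (without control diet replicate 1) to 938 (without sugar diet replicate 2) when a library was left out. In OGT RNAi all genes called numbered 119, against 63 with the replicate block, 254 with DESeq2 and 42 (without Gal4 control replicate 4, 41 of them shared with the 119) to 264 (without OGT RNAi replicate 4), and subunit transcripts called numbered 0 to 1 when a library was left out. The share of all transcripts called in each of those fits is not given here. The cause of these differences in number was not tested.

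No value that changed sign was called. On sugar diet the log2(TPM + 0.5) and log2(TPM + 0.1) scales, where the median of all genes was -0.267 and -0.28, gave Galphaq -0.27, Galphao -0.09, Galphas -0.15, Gbeta13F -0.03, Ggamma1 -0.01 and Ggamma30A -0.12. Leaving out a library gave Galphaq -0.01 to 0.09 and Galphai -0.21 to 0.10. In OGT RNAi the TPM scales gave Ggamma1 -0.02, and leaving out a library gave Galphaq -0.08 to 0.11, Gbeta13F -0.09 to 0.25, Ggamma1 -0.05 to 0.07 and Galphas -0.02 to 0.11.

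Libraries with the same replicate number did not deviate together in the RNAi experiment (correlation -0.249 to 0.165 for the 4 pairs), and the numbers were not taken as pairs. In the diet experiment, with 2 libraries per group, deviations from the group mean mirror each other. Its 2 pairs therefore share 1 value by construction, 0.00482. With the replicate block 728 genes were called on sugar diet and 63 in OGT RNAi, subunit calls stayed at 0 and 1, and Galphaq in OGT RNAi was at 0.05.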

Other observations

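After centring within each experiment, the log2 CPM of several subunit genes varied together over the 13 libraries, which share depth and cell content as well as treatment. Pearson's r was 0.879 for Galphaq and Ggamma30A, 0.872 for Galphas and Ggamma1 and 0.859 for Galphao and Gbeta13F. Over the 12 libraries without Gal4 control replicate 4, r was 0.797, 0.874 and 0.822 for these pairs. The centring still included that library and was not redone, so these values are not free of it. Galphaf had r of -0.373 to 0.182 with the other 8 genes tested, and -0.307 to 0.322 when that library was left out in the same way. Ggamma30A varied most (SD 0.479), followed by Galphaf (SD 0.444), and cta least (SD 0.136).

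Among 8614 genes tested in both experiments, those most like Ggamma30A over the 13 libraries were CG5065 (r = 0.938), sgg (0.921) and Atf3 (0.919). Over the 12 libraries without Gal4 control replicate 4, r was 0.795 for CG5065, which then ranked 327. It was 0.943 for sgg, which ranked 7, and 0.939 for Atf3, which ranked 14. Here too the centring included Gal4 control replicate 4, so these values and ranks are not free of that library.

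The Gal4 transgene had 11 to 18 estimated counts in OGT RNAi libraries and 20 to 41 in Gal4 control libraries, and 0 in all libraries of the diet experiment. These counts are not scaled to library size, so their separation is not read as a difference in level. OGT RNAi replicate 4 had 16 of them among 8183507 counts in genes, and Gal4 control replicate 3 had 20 among 11067627. At more similar depths, OGT RNAi replicate 1 had 11 among 13884994 and Gal4 control replicate 1 had 41 among 13467476. The part of depth in the separation was not tested.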
